A study of Mus musculus with 12 samples.

Results

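The Schlafen (Slfn) genes of mouse lung were followed through the response to house dust mite extract, in wild-type mice, in mice given extract with the enzyme RNase III, and in mice without the RNA-sensing genes Tlr3 and Mavs. The members were taken by symbol from the deposited gene counts: Slfn1, Slfn2, Slfn3, Slfn4, Slfn5, Slfn8 and Slfn9, which are 7 of the 21627 genes listed in both tables. All 7 passed the filter on low counts in every comparison. Another 3 rows carry related names (Slfn10-ps, Slfn14-ps and Slfnl1) and are described apart.

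RNA came from whole lung of mice of the B6 background, 6 to 8 weeks old, taken 14 to 16 h after treatment, and was sequenced in 12 libraries, 6 in each of 2 sets. All mice of the RNase III set were wild type and received D.f. extract with RNase III (n = 2), D.f. extract without it (n = 2) or phosphate-buffered saline, PBS (n = 2); D.f. stands for the mite Dermatophagoides farinae, and RNase III is an enzyme that digests RNA duplexes. The knockout set held mice with both Tlr3 and Mavs knocked out (DKO), given D.f. extract (n = 2) or PBS (n = 1), and wild-type (WT) mice given D.f. extract (n = 2) or PBS (n = 1). Tlr3 senses RNA duplexes in endosomes, and Mavs relays the signal of RNA sensors in the cytosol. The labels do not say whether the libraries of a group came from separate animals, so p-values reflect only the scatter among these libraries, part of which may be technical. The route of exposure, the background controls of the knockout line and the cell composition of the lungs are not given in the labels.

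Schlafen proteins are products of a gene family that interferons induce in many cells. They share an N-terminal core; in the mouse the short members Slfn1 and Slfn2 hold little else, Slfn3 and Slfn4 are longer, and Slfn5, Slfn8 and Slfn9 add a C-terminal region with helicase motifs. Slfn1 was first described as a brake on thymocyte growth, Slfn2 keeps T cells and monocytes quiescent and protects transfer RNA from cleavage under oxidative stress, and Slfn4 is a gene of monocytes, macrophages and myeloid suppressor cells. Related proteins in human (SLFN11) and rat (SLFN13) cut transfer RNA.

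Each library of the RNase III set had 17754518 to 25714074 reads on genes, and each of the knockout set 15687699 to 20945618, of which 4224 to 48506 fell on the 7 members. Levels are CPM (read counts scaled to the size of the library), with TMM scaling, and 3 reads, the limit that a count of 0 allows, correspond to 0.117 to 0.191 CPM, which covers counting error only. Lung markers checked the tissue: the 10 genes of alveolar and airway epithelium were all detected. They summed to 20077 to 40532 CPM in the RNase III set and to 11712 to 16113 CPM in the knockout set. The targeted genes fitted the genotype labels. Mavs had 2.66 and 2.35 CPM in DKO mice given D.f., against 34.3 and 32.2 CPM in WT mice given D.f., and Tlr3 had 14.8 and 10.05 CPM in the DKO libraries, against 156 and 113 CPM in the WT libraries.

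The 7 members lie next to each other on mouse chromosome 11, between bases 82764851 and 83028656 of build NCBIM37 (mm9), a span of 263.8 kb with 8 protein-coding genes in the GENCODE annotation, 0 of them from outside the family. In order along the chromosome these are Slfn5 (82764851 to 82776443, plus strand), Slfn9 (82793131 to 82805332, minus), Slfn8 (82815660 to 82834312, minus), Slfn10-ps (82841632 to 82853544, minus), Slfn2 (82878614 to 82884180, plus), Slfn1 (82930351 to 82936172, plus), Slfn4 (82988688 to 83003723, plus) and Slfn3 (83004832 to 83028656, plus). Exons cover 1864 bases in Slfn1, 1664 in Slfn2, 1816 in Slfn3, 4008 in Slfn4, 4427 in Slfn5, 4091 in Slfn8 and 4726 in Slfn9. Reads of near-identical copies were of concern, since reads that aligned to several places were set aside in the deposited tables. Of all 100-base windows of the exons, 94.0% in Slfn3, 95.9% in Slfn8, 95.4% in Slfn9 and 92.2% in Slfn10-ps occur once in the genome. The share in Slfn1, Slfn2, Slfn4 and Slfn5 was between 99.5% and 100%. Slfn8 and Slfn9 share 50 such windows, so that part of their reads cannot be assigned to either. The antisense transcript 1700003F17Rik spans 2338 exonic bases of Slfn5, and the strand setting of the counting is not given in the sources used here, so reads from either strand of Slfn5 cannot be told apart. This transcript has a row in the RNase III set only, so reads of Slfn5 may not have been counted alike in both sets.

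Since all members rose with D.f. in wild-type lung and fell with both interventions, as described below, the sequence just upstream of their start sites is shown for 5 of them. RefSeq start windows (build GRCm38.p6) matched all 7 members. Each stretch is the 160 bases before the start site, 5′ to 3′ on the gene's own strand. In the first 3, capitals mark the core of an interferon-stimulated response element (GAAA, any 2 bases and GAAA again, on either strand), the element through which type I interferon signalling acts; in the last 2, capitals mark ACTTCCTGG, a run that was picked after the sequences were seen. The stretches lie at chr11:82951942-82952101 on the plus strand for Slfn5, chr11:83020811-83020970 on the minus strand for Slfn8, chr11:82991831-82991990 on the minus strand for Slfn9, chr11:83116660-83116819 on the plus strand for Slfn1 and chr11:83175026-83175185 on the plus strand for Slfn4.
Slfn5: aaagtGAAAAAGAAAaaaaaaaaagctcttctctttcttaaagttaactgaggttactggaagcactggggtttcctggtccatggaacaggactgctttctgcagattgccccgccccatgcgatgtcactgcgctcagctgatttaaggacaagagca
Slfn8: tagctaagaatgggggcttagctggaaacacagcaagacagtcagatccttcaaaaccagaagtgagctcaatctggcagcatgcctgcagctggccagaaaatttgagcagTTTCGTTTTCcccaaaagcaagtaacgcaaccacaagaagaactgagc
Slfn9: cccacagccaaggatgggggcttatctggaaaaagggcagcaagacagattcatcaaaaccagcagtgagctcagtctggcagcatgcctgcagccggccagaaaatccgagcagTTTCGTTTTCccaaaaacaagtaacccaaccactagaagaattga
Slfn1: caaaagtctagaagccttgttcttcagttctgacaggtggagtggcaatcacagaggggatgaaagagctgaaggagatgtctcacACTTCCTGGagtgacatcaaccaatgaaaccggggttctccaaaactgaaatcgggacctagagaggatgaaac
Slfn4: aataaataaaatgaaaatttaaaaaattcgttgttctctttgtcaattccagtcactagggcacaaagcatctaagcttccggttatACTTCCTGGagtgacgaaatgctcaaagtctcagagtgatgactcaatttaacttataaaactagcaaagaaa

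The response-element core was found in 3 of 7 members, all of them the long ones. It lay at positions -155 to -146 of Slfn5, inside a run rich in A, at -48 to -39 of Slfn8 and at -45 to -36 of Slfn9, counted back from the start site. In Slfn8 and Slfn9 the matched letters are the same, TTTCGTTTTC. Slfn8 has a second annotated start, from which the same core lies at -136 to -127. Of all 27025 genes with RefSeq windows of this length (250 bases before to 50 after a start), 3.99% hold the core in at least 1 window, as do 3.44% of the 32851 windows. The gamma-activated site TTCNNNGAA, searched on both strands, was found in 0 of the 7 members and in 9.55% of all genes. ACTTCCTGG was found in the other 4 members, at -74 to -66 in Slfn1, -55 to -47 in Slfn2, -42 to -34 in Slfn3 and -73 to -65 in Slfn4, and in 0.999% of all genes. Upstream of the start, Slfn8 and Slfn9 were identical at 204 of 245 aligned bases (83.3%), while the other 20 pairs of members ranged between 47.5% and 62.1%. Such matches describe letters in these windows and say nothing about which factors were bound in these lungs.

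All 7 members rose in wild-type lungs given D.f. extract. In a fit of the 7 wild-type libraries with D.f. or PBS that also allowed for the set, the fold changes ran between 3.13 for Slfn5 and 109.6 for Slfn4, and each passed edgeR's quasi-likelihood test at an adjusted p below 0.05. The background is that 9.18% of the 14953 genes tested were called higher. The median log2 fold change was 3.28 over the members and -0.01 over all genes tested. Slfn1 had the smallest p of all genes tested in this fit, with a log2 fold change of 3.66 ± 0.13 (SE; adjusted p = 2.27e-05).

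**Figure D1:**
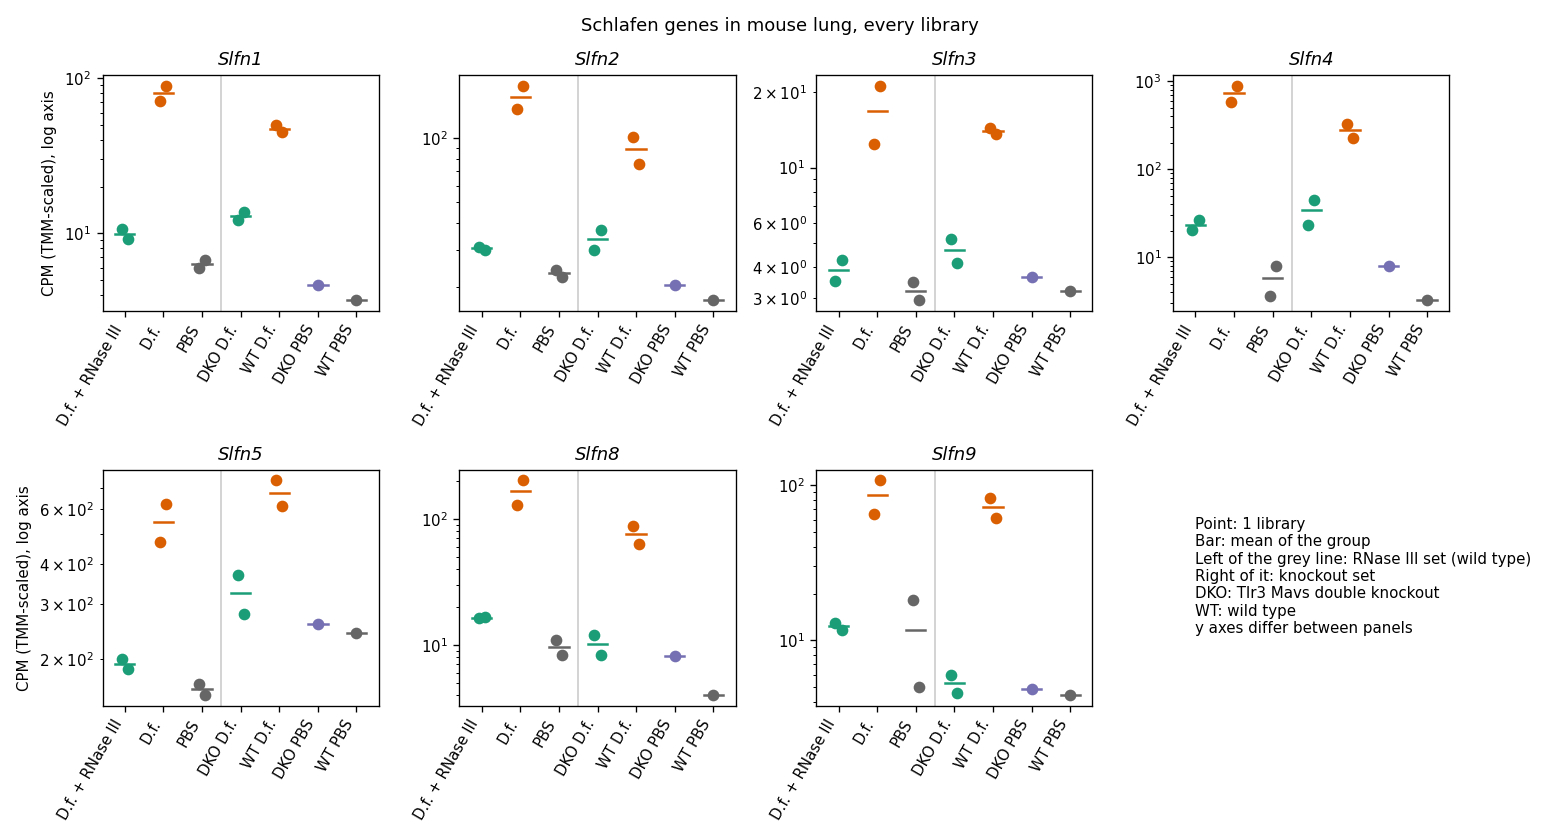
Level of each Slfn member (CPM, log axis) in each of the 12 libraries, by group; each point is a library and each bar a group mean. In both sets the wild-type libraries with D.f. extract sit above those of every other group, and Slfn4 stands above PBS in the libraries with RNase III and in those of DKO mice given D.f., whereas Slfn9 overlaps with PBS there.

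Among the short members, Slfn1 had 71.6 and 89.8 CPM in D.f. lungs, against 5.97 and 6.74 CPM in PBS lungs, in the RNase III set. WT lungs of the knockout set had 49.7 and 44.9 CPM of Slfn1 with D.f., against 3.70 CPM in the WT lung with PBS. Every D.f. library stood well above every PBS library of its set. The log2 fold change was 3.66 ± 0.18 in the RNase III set (adjusted p = 0.000148) and 3.67 ± 0.19 in the knockout set (adjusted p = 0.0145), a change of 12.7-fold and 12.8-fold. Slfn2 had 136 and 176 CPM in D.f. lungs, against 24.2 and 22.3 CPM in PBS lungs of the RNase III set. For WT lungs of the knockout set, Slfn2 was at 101 and 75.9 CPM with D.f., against 17.4 CPM with PBS. Slfn2 stood above Slfn1 per kilobase of exon in every library, and it rose by 2.75 ± 0.16 on the log2 scale in the RNase III set (adjusted p = 0.000264) and by 2.35 ± 0.25 in the knockout set (adjusted p = 0.0294).

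Slfn4 showed the largest change of the family. It had 584 and 892 CPM in D.f. lungs, against 3.59 and 8.01 CPM in PBS lungs of the RNase III set. Its level in WT lungs of the knockout set was 328 and 228 CPM with D.f., against 3.24 CPM with PBS. Every D.f. library was more than an order of magnitude above every PBS library, and the D.f. libraries themselves differed in level. Its log2 fold change was 6.97 ± 0.44 in the RNase III set (126-fold; adjusted p = 0.000322) and 6.42 ± 0.61 in the knockout set (85.4-fold; adjusted p = 0.0268). The size in the RNase III set depended on the PBS pair: leaving out PBS replicate 1 gave 6.53 (adjusted p = 9.99e-05), and leaving out PBS replicate 2 gave 7.68 (adjusted p = 6.8e-05). Slfn3, which in rat is linked to differentiation of intestinal epithelium and lies next to Slfn4, had 12.5 and 21.3 CPM in D.f. lungs, against 3.48 and 2.94 CPM in PBS lungs. The WT lungs of the knockout set had 14.4 and 13.6 CPM of Slfn3 with D.f., against 3.19 CPM with PBS. Per kilobase of exon, Slfn3 and Slfn4 stood at 9.29 and 184 CPM on average in D.f. lungs, against 1.77 and 1.45 CPM in PBS lungs of the RNase III set, so that neighbours with like levels in PBS lungs stood far apart with D.f. The log2 fold change of Slfn3 was 2.39 ± 0.30 in the RNase III set (adjusted p = 0.00363) and 2.13 ± 0.25 in the knockout set (adjusted p = 0.0296).

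Of the long members, Slfn5 had the highest level per kilobase in PBS lungs and the smallest fold change. Slfn5, an interferon-induced member in both mouse and human cells, had 470 and 623 CPM in D.f. lungs, against 167 and 154 CPM in PBS lungs of the RNase III set. In the knockout set it had 739 and 612 CPM in WT lungs with D.f., against 242 CPM with PBS. Its log2 fold change was 1.77 ± 0.17 in the RNase III set (adjusted p = 0.00126). In the knockout set it was 1.48 ± 0.23 with an adjusted p of 0.0529, which did not pass. So 6 of 7 members passed there and 7 of 7 in the RNase III set. Slfn5 did pass in the knockout set with DESeq2 (adjusted p = 2.63e-08), without the filter on low counts (0.0224) and in the fit over all 12 libraries (0.0148). The background of genes called higher was 1.38% of 15294 in the knockout set and 6.51% of 17165 in the RNase III set. Each member was higher in every D.f. library than in every PBS library of wild-type mice in both sets, which held for 42.4% of all genes tested in the knockout set and for 25.6% in the other set.

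Slfn8 had 130 and 203 CPM in D.f. lungs, against 10.8 and 8.28 CPM in PBS lungs of the RNase III set. Slfn8 was at 88.1 and 63.0 CPM in WT lungs of the knockout set with D.f., against 3.99 CPM with PBS. Its log2 fold changes were close in both sets, 4.12 ± 0.26 (17.4-fold; adjusted p = 0.000322) and 4.24 ± 0.37 (18.9-fold; adjusted p = 0.0236). Slfn9, its near copy on the same strand, had 65.4 and 108 CPM in D.f. lungs, against 18.2 and 4.98 CPM in PBS lungs of the RNase III set. WT lungs of the knockout set held 82.2 and 61.8 CPM of Slfn9 with D.f., against 4.44 CPM with PBS. The PBS pair of the RNase III set was thus uneven for Slfn9, with replicate 1 well above every other PBS library. The log2 fold change was 2.91 ± 0.54 there (adjusted p = 0.0158) and 4.02 ± 0.30 in the knockout set (16.2-fold; adjusted p = 0.0167). Without PBS replicate 1 the change in the RNase III set was 4.12 (adjusted p = 0.000385), without PBS replicate 2 it was 2.24 (adjusted p = 0.0023), and without D.f. replicate 4 it was 2.5 and no longer passed (adjusted p = 0.111). Without PBS replicate 1 the change over both sets was 4.04, against 3.28 ± 0.48 with all libraries. For D.f. against PBS in WT lungs of the knockout set, the calls depended on which D.f. library was left out. They were lost without WT D.f. replicate 3 or 4, but held without either DKO D.f. library. Calls over the whole table likewise fell in the former fits and rose in the latter. Without WT D.f. replicate 3 or 4 the change was 3.95 and 4.44 for Slfn8, and 3.77 and 4.18 for Slfn9. The estimates of all 7 members stayed positive. Such fits leave 1 library in a group, and the cause of the lost calls was not tested.

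The order of the members' levels differed between D.f. and PBS lungs. Per kilobase of exon, the order in PBS lungs of the RNase III set was led by Slfn5 at 36.3 ± 2.06 CPM per kb (SD, n = 2), then Slfn2 at 14.0 ± 0.81 and Slfn1 at 3.41 ± 0.29. Slfn9, at 3.86 and 1.05 CPM per kb, overlapped Slfn1, Slfn8, Slfn3 and Slfn4. Slfn8, at 2.65 and 2.02 CPM per kb, lay above Slfn3, at 1.92 and 1.62, and Slfn4, at 0.896 and 2.00, overlapped Slfn3. With D.f. extract in that set Slfn4 came first at 184 ± 54.4 CPM per kb (SD, n = 2), ahead of Slfn5 at 124 ± 24.5; the libraries did not overlap, with Slfn4 at 146 and 223 CPM per kb and Slfn5 at 106 and 141. In the WT lungs of the knockout set Slfn5 stayed first with D.f., at 167 and 138 CPM per kb, ahead of Slfn4 at 81.7 and 56.8 CPM per kb. The antisense transcript over Slfn5 was listed in the RNase III set only. Its part in the differences of Slfn5 level and share between sets was not tested. Slfn3 was the lowest member in every D.f. library of wild-type mice.

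As a share of the family's summed level per kilobase, Slfn4 made up 34.3% and 37.0% in D.f. lungs, against 1.38% and 3.41% in PBS lungs of the RNase III set. Slfn5 made up 25% and 23.4% in D.f. lungs, against 58.2% and 59.5% in PBS lungs. In the knockout set Slfn4 made up 21.3% and 18.9% in WT lungs with D.f., against 1.13% with PBS, and Slfn5 made up 43.6% and 46.0% with D.f., against 76.3% with PBS. Both interventions left the Slfn4 share between those of D.f. and PBS. Slfn4 made up 6.11% and 8.10% with D.f. and RNase III, and 4.76% and 10.3% in DKO lungs with D.f., against 2.46% in the DKO lung with PBS. This did not hold for every member: Slfn9 made up 1.05% and 0.884% in DKO lungs with D.f., against 1.28% with PBS. The family as a whole took 0.144% and 0.211% of assigned reads in D.f. lungs, against 0.0238% and 0.0205% in PBS lungs of the RNase III set. These shares describe whole lung: in bulk RNA, fewer cells of a type and less RNA per cell cannot be told apart.

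**Figure D2:**
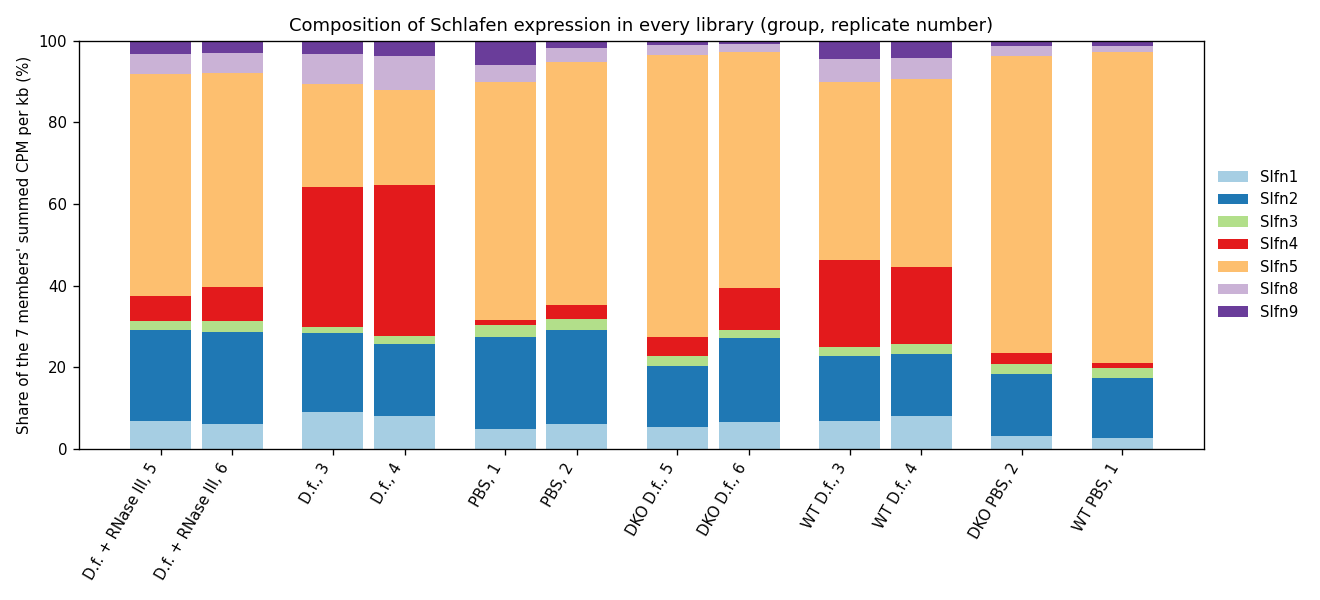
Share of each member in the family's summed level per kilobase of exon (percent), for each of the 12 libraries; each stacked bar is a library. Slfn5 is the largest part in all PBS libraries, and Slfn4 is the largest part in the 2 D.f. libraries of the RNase III set, with 34.3% and 37.0%.

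All 7 members fell when the extract was given with RNase III. Against D.f. extract alone, the fold changes on the log2 scale ran between -1.50 for Slfn5 and -4.98 for Slfn4, with a median of -2.81 over the members and 0.00 over all genes tested, and each passed edgeR's test. The background is that 4.85% of the 17165 genes tested were called lower. Each member was lower in both RNase III libraries than in both D.f. libraries, which held for 30.7% of all genes tested.

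Slfn4 had 20.4 and 26.2 CPM in lungs given D.f. with RNase III, against 584 and 892 CPM with D.f. alone. That is a log2 fold change of -4.98 ± 0.39 (adjusted p = 0.000943), 31.7-fold lower. Slfn8 had 16.4 and 16.5 CPM with RNase III, against 130 and 203 CPM without it, and changed by -3.34 ± 0.24 (adjusted p = 0.000742). The short members followed. Slfn1 had 10.7 and 9.20 CPM with RNase III, against 71.6 and 89.8 CPM without it (-3.02 ± 0.17, adjusted p = 0.000449). Slfn2 had 30.9 and 30.1 CPM with RNase III, against 136 and 176 CPM without it (-2.36 ± 0.16, adjusted p = 0.000613). These 4 kept their calls whichever library of the set was left out.

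The calls of the other 3 members were less firm. Slfn9 had 13 and 11.6 CPM with RNase III, against 65.4 and 108 CPM without it (-2.81 ± 0.53, adjusted p = 0.0231). Slfn3 had 3.53 and 4.28 CPM with RNase III, against 12.5 and 21.3 CPM without it (-2.11 ± 0.30, adjusted p = 0.00774). Slfn5 had 201 and 187 CPM with RNase III, against 470 and 623 CPM without it (-1.50 ± 0.17, adjusted p = 0.00311). None of the pairs overlapped. All 3 missed the threshold without RNase III replicate 5 (adjusted p = 0.196 for Slfn9, 0.112 for Slfn3 and 0.0611 for Slfn5) and without RNase III replicate 6 (0.164, 0.065 and 0.0555 in the same order), which left 4 of 7 called. Slfn9 also missed it without D.f. replicate 3 (adjusted p = 0.068) or 4 (0.156), and Slfn3 without D.f. replicate 4 (0.0544). Every fold change stayed negative in these fits, and fewer genes were called over the whole table than with all libraries.

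In lungs given D.f. with RNase III, most members stood slightly above PBS lungs, and none passed the test. By edgeR's quasi-likelihood test 0 of 7 members were called, 4 of 7 had an unadjusted p under 0.05, as did 4.86% of all genes tested, and DESeq2 called 0 members; the background of genes called higher was 0.00583% of 17165. Slfn4 had 20.4 and 26.2 CPM with D.f. and RNase III, against 3.59 and 8.01 CPM with PBS, 3.97-fold (log2 1.99 ± 0.37, 95% interval 1.11 to 2.87, adjusted p = 0.745). Without PBS replicate 2 its change was 2.70 with an adjusted p of 0.0254. Both Slfn1 and Slfn8 also stood above PBS in each library, at log2 0.64 ± 0.18 (adjusted p = 0.907) and 0.79 ± 0.24 (adjusted p = 0.96). Slfn9 had an estimate of 0.10 with an interval of -1.14 to 1.34, and its sign turned to -0.57 without PBS replicate 2 (adjusted p = 0.583). All members but Slfn9, 6 of 7, were higher in both RNase III libraries than in both PBS libraries, against 16.4% of all genes tested.

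**Figure D3:**
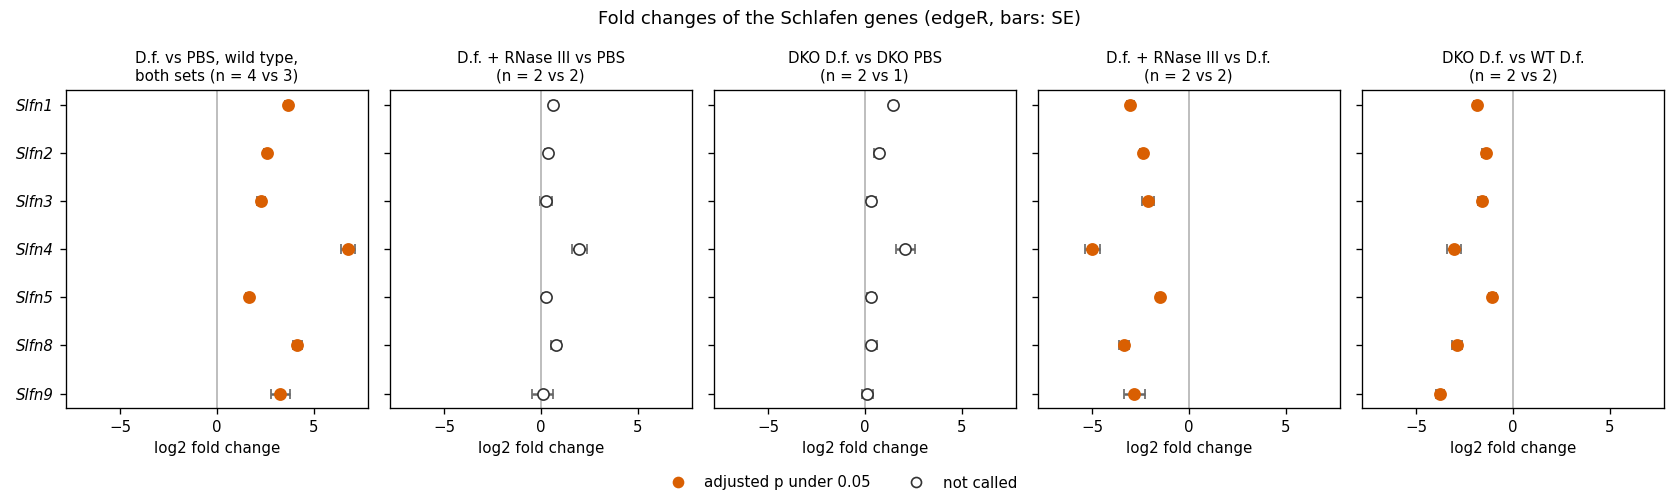
Log2 fold change of each Slfn member with its SE from the edgeR fits, 1 panel for each of 5 comparisons; filled points passed the test. The D.f. response in wild-type lung lies above 0 for every member, the effects of RNase III and of the knockout lie below 0, and the D.f. response left with RNase III or in DKO lung is largest for Slfn4.

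All 7 members were also lower with D.f. in DKO lungs than in WT lungs. The log2 fold changes ran between -1.06 for Slfn5 and -3.77 for Slfn9, with a median of -1.87 over the members and 0.01 over all genes tested, and each passed edgeR's test. The background is that 2.01% of the 15294 genes tested were called lower. No member overlapped between the pairs of libraries, and 25.6% of all genes tested were lower in both DKO libraries than in both WT libraries.

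Slfn9 had the largest difference between genotypes, with 6.01 and 4.55 CPM in DKO lungs given D.f., against 82.2 and 61.8 CPM in WT lungs given D.f. The log2 fold change was -3.77 ± 0.22 (13.7-fold lower; adjusted p = 0.00496). Slfn8 had 12 and 8.35 CPM in the DKO lungs, against 88.1 and 63.0 CPM in the WT lungs (-2.89 ± 0.25, adjusted p = 0.0121). Slfn4 had 23.1 and 44.8 CPM in the DKO lungs, against 328 and 228 CPM in the WT lungs (-3.03 ± 0.36, adjusted p = 0.025). For Slfn9 the DKO libraries with D.f. lay at the level of the PBS libraries, whereas for Slfn4 they lay between.

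Slfn1 had 12.2 and 13.6 CPM in DKO lungs with D.f., against 49.7 and 44.9 CPM in WT lungs with D.f. (-1.87 ± 0.13, adjusted p = 0.00769). Slfn2 had 30.1 and 37.0 CPM in the DKO lungs, against 101 and 75.9 CPM in the WT lungs (-1.40 ± 0.18, adjusted p = 0.0274). Slfn3 had 5.16 and 4.15 CPM in the DKO lungs, against 14.4 and 13.6 CPM in the WT lungs (-1.59 ± 0.18, adjusted p = 0.0242). Slfn5 was nearest to the threshold, with 370 and 278 CPM in the DKO lungs, against 739 and 612 CPM in the WT lungs (-1.06 ± 0.17, adjusted p = 0.0494), and its adjusted p was 0.0507 both with other size factors (RLE) and without the WT PBS library. This comparison had only 2 residual degrees of freedom, and its calls depended on which library was left out. They held without DKO D.f. replicate 5 or 6, but most or all were lost without WT D.f. replicate 3 or 4. Calls over all genes tested likewise rose in number in the former fits and fell in the latter. The change of Slfn5 was -1.28 and -0.87 without DKO D.f. replicate 5 or 6. It was -0.91 and -1.19 without WT D.f. replicate 3 or 4. Such fits leave 1 library in a group, and the cause of the lost calls was not tested. The direction held for all 7 in each of these fits.

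In DKO lungs the estimated D.f. response was positive for all 7 members, between 0.12 for Slfn9 and 2.10 for Slfn4 on the log2 scale. It was positive for 7904 of the 15294 genes tested. Against the DKO lung given PBS, 0 of 7 members were called by edgeR, as were 0% of the 15294 genes tested; 3 of 7 had an unadjusted p under 0.05, as did 5.54% of all genes tested, and DESeq2 called 1 member, Slfn1 (adjusted p = 0.00334), among 37 genes of the whole table. Slfn1 had 12.2 and 13.6 CPM in DKO lungs with D.f., against 4.67 CPM with PBS, a log2 fold change of 1.47 ± 0.18 (95% interval 1.02 to 1.92; edgeR adjusted p = 0.781). It ranked 3 among all genes tested by p. Slfn4 had 23.1 and 44.8 CPM in DKO lungs with D.f., against 7.95 CPM with PBS (log2 2.10 ± 0.49, interval 0.87 to 3.32, adjusted p = 0.819). Slfn2 had 30.1 and 37.0 CPM with D.f., against 20.6 CPM with PBS (log2 0.71 ± 0.23, adjusted p = 0.819). Slfn9 had 6.01 and 4.55 CPM with D.f., against 4.86 CPM with PBS (log2 0.12 ± 0.29, interval -0.60 to 0.84), and its estimate was -0.095 without DKO D.f. replicate 5 (adjusted p = 0.875). Slfn3, Slfn5 and Slfn8 had estimates of 0.35, 0.32 and 0.31. All members but Slfn9, 6 of 7, were higher in both D.f. libraries than in the PBS library, against 33.3% of all genes tested. Without DKO D.f. replicate 5, Slfn1, Slfn2 and Slfn4 were called (adjusted p = 2.47e-06, 0.000364 and 2.41e-10), and without replicate 6, Slfn1 and Slfn4 were (0.000843 and 0.000874). These fits called 2092 and 266 genes of the whole table, against 0 with all libraries, and in each of them the remaining DKO library is assumed to vary like the other groups.

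The difference between the D.f. responses of DKO and WT lung was tested as an interaction. Its estimate was negative for all 7 members, at -3.93 ± 0.47 for Slfn8, -3.90 ± 0.40 for Slfn9, -4.32 ± 0.70 for Slfn4, -2.21 ± 0.25 for Slfn1, -1.79 ± 0.34 for Slfn3, -1.64 ± 0.32 for Slfn2 and -1.16 ± 0.30 for Slfn5 on the log2 scale. By edgeR 0 of 7 passed after adjustment (adjusted p between 0.117 for Slfn9 and 0.309 for Slfn5), against a background of 0.00654% called lower. All 7 had an unadjusted p under 0.05, as did 9.68% of all genes tested, and DESeq2 called 6 of 7 among 213 genes of the whole table. The estimates stayed negative for all 7 with any D.f. library left out. That of Slfn8 was -4.22 and -3.67 without DKO D.f. replicate 5 or 6, and -3.64 and -4.13 without WT D.f. replicate 3 or 4. These fits leave 1 library in a group, and members passed without a DKO library but not without a WT library. Calls over the whole table also rose in number only in the fits without a DKO library. The interaction also rests on 1 PBS library per genotype, with DKO to WT ratios of 2.45 for Slfn4 and 2.06 for Slfn8. Without the filter on low counts Slfn9 was the 1 member called (adjusted p = 0.0366), among 16 genes.

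The effect of RNase III in wild-type lung was set against the effect of the knockout, each relative to D.f. alone in wild-type mice of its own set. The sign of the difference was not the same for all members. Slfn1 changed by -3.02 with RNase III and by -1.87 in DKO lungs, a difference of -1.17 ± 0.22 in the fit of all 12 libraries (adjusted p = 0.187). Slfn4 changed by -4.98 with RNase III and by -3.03 in DKO lungs, a difference of -1.98 ± 0.55 (adjusted p = 0.266). Slfn9 lay the other way, at -2.81 with RNase III and -3.77 in DKO lungs, a difference of 0.94 ± 0.68 (adjusted p = 0.654). By edgeR 0 of 7 members passed and 3 of 7 had an unadjusted p under 0.05, as did 11.1% of all genes tested. DESeq2 called 2, Slfn1 (adjusted p = 0.0113) and Slfn2 (0.0476), among 205 genes of the whole table; the background of genes called in either direction was 0.00646%. The tables of the sets list different numbers of genes, and the set cannot be told apart from the kind of intervention in this comparison.

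The PBS lungs of the knockout set gave 1 library per genotype, which allows no test. Slfn4 had 7.95 CPM in the DKO lung, against 3.24 CPM in the WT lung, a ratio of 2.45 with a counting interval of 1.78 to 3.41. Slfn8 had 8.20 CPM in the DKO lung, against 3.99 CPM in the WT lung, a ratio of 2.06 (1.53 to 2.79). The other 5 members had ratios between 1.07 and 1.26. These libraries also differed in marker sums: natural killer cell markers summed to 64.6 CPM in the DKO lung, against 17.3 CPM in the WT lung, neutrophil markers to 192 against 98.3 CPM, B cell markers to 114 against 65.9 CPM, and heart muscle genes to 157 against 880.3 CPM. Their part in the ratios was not tested. The counting intervals do not include differences between animals, and Slfn4 differed about as much between the PBS replicates of the RNase III set (3.59 and 8.01 CPM).

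**Figure D4:**
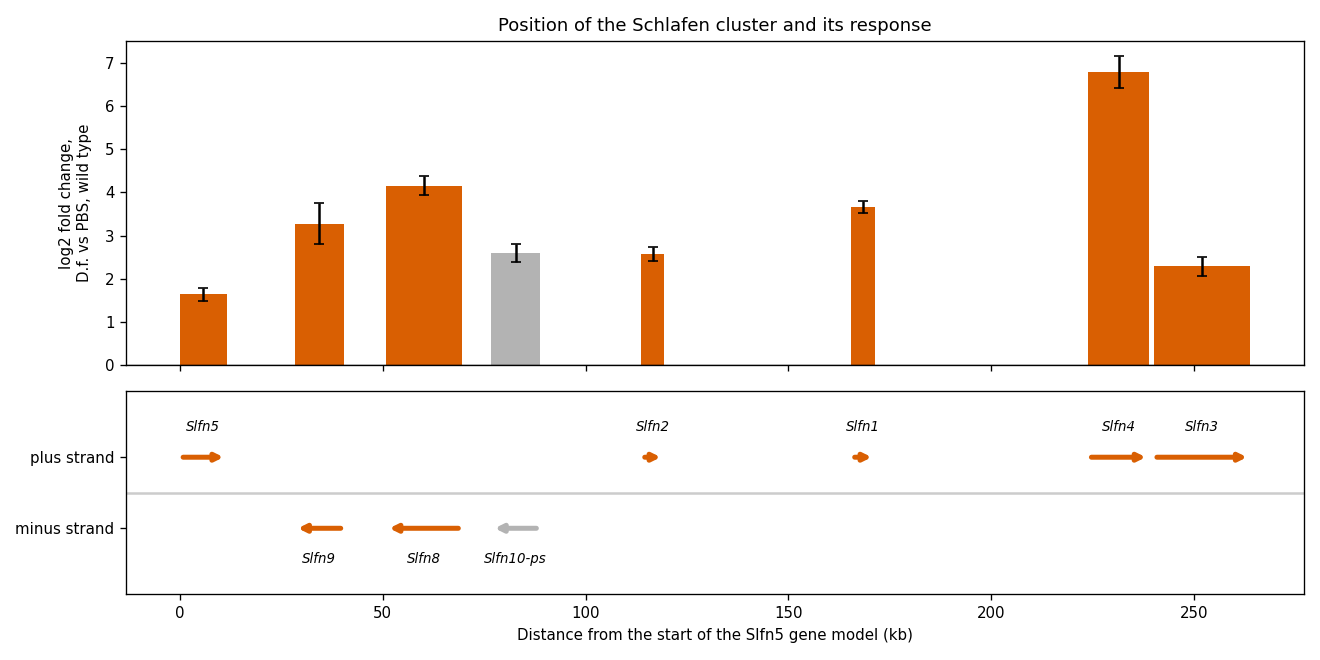
Slfn genes in their order along the cluster: the upper panel gives the log2 fold change of D.f. against PBS over all wild-type libraries (bars, with SE) and the lower panel the strand (arrows), both against the distance from the start of Slfn5 in kb. All 8 genes lie above 0, Slfn10-ps (grey) included, and Slfn4, at 6.78, stands beside Slfn3, at 2.29.

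The nearest annotated neighbour before the cluster, Unc45b, a myosin chaperone that lies 7.95 kb from Slfn5, had a log2 fold change of -0.03 ± 0.09 with D.f. in wild-type lung (adjusted p = 0.852). Of the 11 tested genes of a list of the surrounding region, 1 was called higher with D.f., the chemokine gene Ccl5 (2.90 ± 0.32, adjusted p = 0.000898), and the same gene was the 1 called lower with RNase III (-2.69 ± 0.26, adjusted p = 0.00191) and in DKO lungs (-3.03 ± 0.14, adjusted p = 0.00468). Over all genes tested, 9.18% were called higher with D.f., 4.85% lower with RNase III and 2.01% lower in DKO lungs. The count of 1 in 11 with D.f. thus lay near the background. Within the cluster Slfn10-ps, named as a pseudogene, had 10.5 and 14.9 CPM in D.f. lungs, against 2.54 and 1.95 CPM in PBS lungs of the RNase III set, and rose by 2.60 ± 0.21 over both sets (adjusted p = 0.000221). It fell with RNase III (-2.35 ± 0.27, adjusted p = 0.0036) and was lower in DKO lungs (-2.45 ± 0.30, adjusted p = 0.0259). It shares 105 windows of 100 bases with Slfn8 and 150 with Slfn9, so that part of its reads is uncertain. Slfn14-ps and Slfnl1 reached at most 1.20 and 1.28 CPM in any library.

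Interferon-stimulated genes and cell markers were counted beside the family. Of 39 tested genes of an interferon-stimulated list, 39 were called higher with D.f. over both sets (median log2 3.31), 38 were called lower with RNase III (median -3.09) and 35 lower in DKO lungs (median -3.19). Over all genes tested, the shares called in these directions were 9.18%, 4.85% and 2.01% in the same order. The medians of the Slfn members in the same comparisons were 3.28, -2.81 and -1.87. In DKO lungs, D.f. against the 1 PBS library gave a positive estimate for 38 of the 39, with a median of 0.59. Among all 15294 genes tested there, 7904 had a positive estimate. Of the interferon genes themselves, Ifnb1 had 7 and 10 reads in the D.f. libraries of the RNase III set and 0 in its PBS libraries, and at most 2 reads in any library of the knockout set. Ifng rose over both sets by 3.47 ± 0.56 (adjusted p = 0.00583).

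Markers of blood-derived cells followed the family in some comparisons and not in others. Of 13 tested monocyte and macrophage markers, 9 were called higher with D.f. in wild-type lung, among them Ly6c2 (4.46 ± 0.18, adjusted p = 2.27e-05), a marker of inflammatory monocytes, and Fcgr1 (3.72 ± 0.22, adjusted p = 7.14e-05), a high-affinity receptor for immunoglobulin G that interferons also induce. Their sum was 410 to 417 CPM with D.f. and RNase III and 1041 to 1058 CPM with D.f., against 354 to 390 CPM with PBS. That sum in the knockout set was 450 to 583 CPM in DKO lungs with D.f. and 378 CPM in the DKO lung with PBS, and 608 to 705 CPM in WT lungs with D.f. and 279 CPM in the WT lung with PBS. With RNase III 6 of the 13 were called lower, against 4.85% of all genes tested. In DKO lungs 3 were lower, Ly6c2, Fcgr1 and Ms4a4c, against 2.01% of all genes tested, and 1 was higher, F13a1. No monocyte marker was at 0 in any group.

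Of 12 natural killer cell markers 9 were called higher with D.f. in wild-type lung, as were 9 of 14 T cell markers, 3 of 10 neutrophil markers and 1 of 10 B cell markers. Over all 14953 genes tested 9.18% were called higher, so the B cell count lay near that background. In DKO lungs with D.f. against PBS, all 7 Slfn estimates were positive. Estimates there were negative for 11 of 11 natural killer cell markers (median -1.22) and 13 of 14 T cell markers (median -0.36). So were those of 9 of 10 B cell markers (median -1.16), and of 7387 of all 15294 genes tested. Estimates were positive for 11 of 13 monocyte and macrophage markers (median 0.38) and 9 of 11 neutrophil markers (median 0.15). The median of the Slfn members was 0.35. That comparison rests on 1 DKO PBS library, where natural killer cell markers summed to 64.6 CPM. The sum was 17.3 CPM in the WT PBS lung and 31.6 to 45.9 CPM in PBS lungs of the RNase III set. For B cell markers these sums were 114, 65.9 and 105 to 128 CPM in the same order. The neutrophil sum differed from the family in the knockout set, with 177 to 348 CPM in DKO lungs and 151 to 222 CPM in WT lungs given D.f. The summed level of 12 heart muscle genes was 133 to 199 CPM in DKO lungs with D.f. and 479 to 713 CPM in WT lungs with D.f., 230 to 255 CPM with D.f. and RNase III, 549 to 1120 CPM with D.f., and 193 and 1476 CPM in the PBS pair of the RNase III set. The fat marker sum was 12.5 and 183 CPM in that PBS pair. The part of these cells and tissues in the Slfn values was not tested.

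Across the 12 libraries, after centring within each set, the members tracked each other, and some shared their nearest partner genes. Pearson's r of log2 levels between members ran between 0.863 for Slfn4 and Slfn9 and 0.991 for Slfn1 and Slfn2. Among 11918 genes, those with the highest r to Slfn4 were Aoah (0.993), Irg1 (0.991) and Aif1 (0.990), genes known from macrophages and other myeloid cells. Those for Slfn9 were the antiviral genes Mx2 (0.994), Usp18 (0.991) and Ifit1 (0.991), all 3 of the interferon-stimulated list. Slfn2 was near to Ms4a6d and Fcgr1, Slfn1 nearest to Trim30d, Ms4a6d and Ly6e, Slfn3 to Trafd1, Mlkl and Trim30a, Slfn5 to Trim30a, Mlkl and Samhd1, and Slfn8 to Trim30a, Oas3 and Tmem106a, each with r of at least 0.984. These values are descriptions: the libraries fall into groups by treatment, most of the spread lies between those groups, and the genes share library and depth.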

How the data were processed

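The values are raw read counts per gene, deposited by the authors as 1 table per library of whole mouse lung, with no normalization. Per the labels' protocols, RNA was extracted with TRIzol and libraries were made with a TruSeq total RNA kit and sequenced as 100-base single-end reads. Per the submitters' processing notes, reads were processed with bcl2fastq, TopHat2 2.0.8b and HTSeq on build mm9. For HTSeq, the version, annotation and strand setting were not given in the sources used here. Lines with reads assigned to no gene were left out; reads that were not uniquely aligned made up 36.8% to 44.6% of each table. A library of the RNase III set lists 33924 genes, and 1 of the knockout set lists 22609.

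Each set was fitted with edgeR 4.0.16 in R 4.3.3 on its 6 libraries (TMM, filterByExpr, group means, glmQLFTest), with Benjamini-Hochberg adjusted p below 0.05 over all genes tested and 3 (RNase III set) or 2 (knockout set) residual degrees of freedom. A group with 1 library is assumed to vary like the others. The wild-type response over both sets had the set as a term. Alternatives were RLE size factors, no filter beyond 1 read, DESeq2 1.42.0, 1 fit over all 12 libraries and leaving out each library. Scripts were tested on simulated counts. Libraries of a group differed beyond sampling noise (chi-square per degree of freedom 7.33 to 46.6).

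Gene positions came from GENCODE on NCBIM37, and upstream sequences from RefSeq on GRCm38.p6, searched on both strands; upstream regions were aligned with Biopython 1.88. Named genes were the 7 members, other Slfn rows, Tlr3, Mavs, flanking genes, up to 4 genes of a list by smallest p, and the 3 genes most correlated with each member (log2 of CPM + 0.5, mean log2 CPM of at least 1). Outside this rule, Ifnb1 and the run ACTTCCTGG were named once their values had been seen. Some genes that the rule names are not reported here. The members and lists were chosen with earlier results of these data known.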

Additional observations from a re-analysis of the deposited data

How the results depend on the processing

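Over both sets, all 7 members were called higher with D.f. in wild-type lung with RLE size factors, without the filter, with DESeq2, in the fit over 12 libraries and with each library left out, and in the RNase III set 6 to 7 were with each library left out. For RNase III against D.f. alone the count was 4 to 7 with each library left out, and for RNase III against PBS 0 to 1. In the knockout set the count with each library left out was 0 to 7 for D.f. against PBS in WT lung, 0 to 3 in DKO lung, 0 to 7 for DKO against WT with D.f., and 0 to 7 for the interaction. DESeq2 called 1 member for D.f. against PBS in DKO lung, 6 for the interaction and 2 for the RNase III effect set against the knockout effect; without the filter on low counts 1 was called for the interaction. The sign of Slfn9 turned in 2 fits, to -0.57 for RNase III against PBS without PBS replicate 2 and to -0.095 for D.f. against PBS in DKO lung without DKO D.f. replicate 5; over all fits with a library left out its value was -0.57 to 1.31 in the first comparison and -0.095 to 0.31 in the second. Of 644 values of single members under an alternative, 570 kept direction and side of the threshold, 37 lost a call, 35 gained one and 2 changed sign. With a library left out, lost calls went with fewer genes called over the whole table, and gained calls with more. The cause of these changes was not tested. Fits without a library also have fewer samples and residual degrees of freedom. No paired analysis was possible because the libraries are numbered 1 to 6 through each set, so that the groups compared share no replicate number. In the knockout set, with 2 residual degrees of freedom, the changes of Slfn5 lay near the threshold.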

Other observations

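The near copies Slfn8 and Slfn9 stood in different proportions in DKO and WT lungs of the knockout set, but not when the wild-type lungs of the RNase III set were included. Per kilobase of exon the ratio of Slfn8 to Slfn9 was 2.31 and 2.12 in DKO lungs with D.f. and 1.95 in the DKO lung with PBS, against 1.24 and 1.18 in WT lungs with D.f. and 1.04 in the WT lung with PBS. In the wild-type lungs of the RNase III set it was 1.46 and 1.64 with D.f. and RNase III and 2.29 and 2.18 with D.f., against 0.686 and 1.92 with PBS. Wild-type libraries of the RNase III set thus reached 2.29, close to the highest value in DKO lungs, while those of the knockout set reached 1.24. The difference between genotypes was not tested. The ratio also carries an uncertainty of read assignment. Both genes have 50 windows of 100 bases in common, and Slfn10-ps shares 105 with Slfn8 and 150 with Slfn9.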
